A study of Mus musculus with 4 samples.

Results

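The DEAD and DEAH box helicases described here are the 36 protein-coding genes of the deposited table whose symbol starts with Ddx or Dhx and a number, after 13 genes of the same name pattern were left out (Ddx21, Ddx50, Ddx10, Ddx18, Ddx27, Ddx47, Ddx51, Ddx52, Ddx54, Ddx56, Ddx58, Ddx5 and Dhx9). They are 36 of 12390 listed genes, 21 with a Ddx and 15 with a Dhx symbol, and the rule uses names and no measured value. RNA was sequenced from mouse hematopoietic stem cells of the bone marrow, sorted as lineage-negative cells that carry Sca-1, c-Kit and CD150 and lack CD48, about 5000 cells per library. The 2 control libraries (titles Ddx21_fl, genotype tag WT) came from mice with floxed alleles, written Ddx211fl/fl in the design text, and the 2 knockout libraries (Ddx21_CKO, tag KO) from mice that carry CAG-CreERT2 in addition. All 4 libraries therefore share the floxed alleles. CreERT2 is a Cre recombinase that acts once tamoxifen is given. The CAG promoter drives it in most cell types, so deletion need not be limited to blood cells. Whether cells outside the sorted ones lost Ddx21 was not measured here. The sources used here do not give age, sex, tamoxifen dosing, the time after it, whether controls received it or whether each library came from 1 animal, so the p-values rest on the differences among these 4 libraries, which may be technical.

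DEAD box proteins unwind short RNA duplexes or displace proteins from RNA with the energy of ATP, mostly without moving along the strand. DEAH box proteins move along RNA and remodel large complexes such as the spliceosome. Ddx21, the gene targeted in this study, is a nucleolar DEAD box helicase that acts in rRNA production and in transcription by RNA polymerase II. The comparison here asks whether RNA of the other family members differed between cells sorted from control and from knockout mice. Ddx11, Dhx58 and Ddx60 carry family names but belong to other branches of the helicases: Ddx11 to the iron-sulphur DNA helicases, Dhx58 to the RIG-I-like receptors and Ddx60 to the Ski2-like helicases.

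Values are RPKM, reads per kilobase of transcript scaled to the read total of the library, and a gene without reads is listed at 0.001. Between 43218009 and 62871440 reads were recovered per library, and each of the 36 members had between 262 and 27247 reads in every library. The targeted gene Ddx21 (chromosome 10) read 10.95 and 12.1 RPKM in control and 6.20 and 6.60 RPKM in knockout (log2 fold change -0.76, SE 0.30, limma adjusted p = 0.158), lower in both knockout libraries and short of the threshold. After the rescaling described next it was -1.07 (limma adjusted p = 0.0956), and voom with limma on rescaled reads gave -1.21 (adjusted p = 0.0303). The knockout libraries thus still held Ddx21 RNA (mean 6.40 RPKM, beside 11.5 RPKM in control). Whether it came from undeleted cells or from the deleted allele was not tested. Knockout replicate 2 stands apart in scale: its median log2 difference from the control mean over all 11742 tested genes was 0.50, against 0.12 in knockout replicate 1. Results are therefore given on the deposited scale and after rescaling by the trimmed mean of log ratios (TMM-type factors), which brought the median log2 fold change of all genes from 0.31 to 0.02. Of 10 stem cell markers 9 were listed, with summed levels of 182 and 229 RPKM in control and 279 and 354 RPKM in knockout, while Cd48 stood between 20.7 and 32.4 RPKM in this CD48-negative gate. The 9 neutrophil and monocyte markers summed to 25715 and 26076 RPKM in control and 16436 and 9963 RPKM in knockout, and the 6 osteoblast and stroma markers to 445 and 258 RPKM in control and 6280 and 1567 RPKM in knockout. The 5 granule genes of myeloid progenitors summed to 44969 and 47191 RPKM in control and 33489 and 22203 RPKM in knockout. B cell markers (3 of 4 listed) summed to 21.8 and 17.9 against 27.4 and 37.4 RPKM, and endothelial markers (2 of 3) to 11.5 and 9.28 against 14.1 and 22.7 RPKM. None of these 6 lists had a listed gene at 0 in all libraries. Their sums, Cd48 apart, did not overlap between the groups, and neither did the values of 62.9% of all tested genes. The 6 erythroid markers summed to 944 and 455 RPKM in control and 832 and 441 RPKM in knockout, with overlap. These marker differences stand beside every result that follows, and their part in it was not tested. In such bulk samples, fewer cells of a type and less RNA per cell cannot be told apart.

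No member was called. With limma on log2(RPKM + 1) and Benjamini-Hochberg adjustment over all 11742 tested genes, 0 of the 36 members were higher and 0 lower at an adjusted p under 0.05, where 3.33% of all tested genes were higher and 0.86% lower, 4.19% in either direction. With an unadjusted threshold of 0.05, 1 member was higher (Dhx58) and 0 lower, beside 13.8% and 2.45% of all tested genes. After rescaling, limma called 0 members (0.00852% of all genes higher, 0% lower) and had 1 higher by unadjusted p (Dhx32) and 0 lower, beside 8.46% and 7.43% of all genes. Voom with limma on rescaled reads called 0 members (0.435% of all genes higher, 0.187% lower, 0.622% in either direction) and had 2 higher by unadjusted p, Dhx58 and Dhx32, and 0 lower, beside 9.49% and 7.6% of all genes. The count rested on knockout replicate 1: without it, with the spread of the lone knockout library assumed equal to that of the controls, 24 members were higher and 0 lower, where 54.3% of all tested genes were higher and 4.48% lower (58.8% in either direction). With that library left out after rescaling, 0 members were higher and 1 lower, where 1.38% of all tested genes were higher and 6.92% lower (8.3% in either direction). Adjusted p-values of the members on the deposited scale ran from 0.225 to 0.816. The median log2 fold change of the members was 0.29, beside 0.31 for all tested genes, and after rescaling 0.02 for both. Members with a Ddx symbol had a median of 0.28 and those with a Dhx symbol 0.34, and after rescaling 0.03 and 0.02. A missed threshold does not show equal levels: the 95% intervals of single members extended between 0.33 and 0.66 to each side of the log2 fold change on the deposited scale, and between 0.26 and 0.53 after rescaling. Over all 36 members the rescaled intervals lay between -0.99 (Ddx39) and 0.69 (Dhx58).

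The levels of the 36 genes spanned a 133-fold range of mean RPKM, from 1.13 for Ddx60 to 151 for Ddx39b, with a median of 7.22 RPKM beside 6.48 RPKM for all tested genes. A mean of at least 10 RPKM was reached by 15 members, and 4 members (Dhx57, Dhx36, Ddx19b and Ddx60) lay under 2 RPKM. All 36 passed the filter of a mean of at least 1 RPKM. In the order of control means, 18 of the 35 neighbouring pairs did not overlap between the control libraries, and the other 17 neighbours could not be ordered beyond the spread of the control libraries. The order hardly differed between genotypes, with a rank correlation of 0.988 between control and knockout means over the 36 genes and 0.987 between the control libraries. Ddx3y, Ddx4, Ddx25 and Ddx43, which the annotation also lists under this name pattern, are not analysed here.

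**Figure D1:**
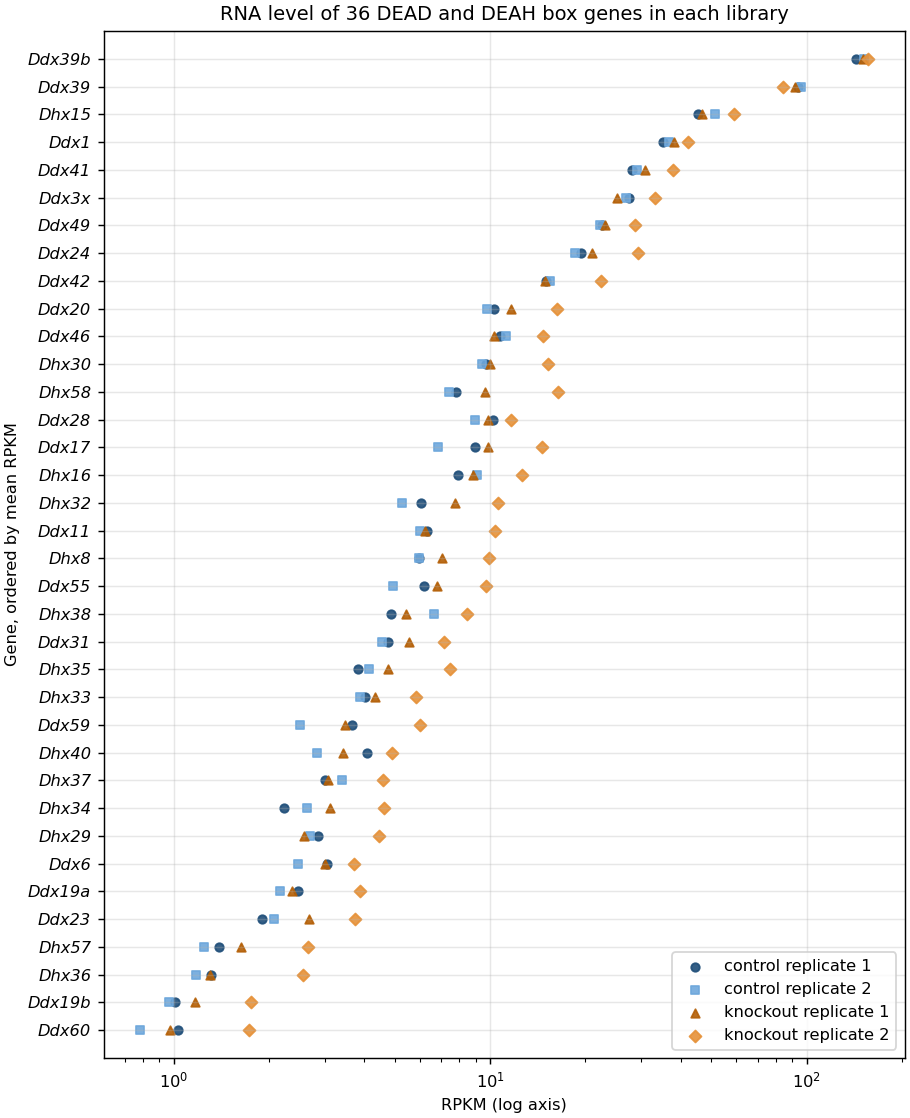
RNA level of each of the 36 genes (vertical axis, ordered by mean) in RPKM on a log axis, with 1 symbol for each of the 2 control and 2 knockout libraries. Knockout replicate 2 is the rightmost symbol for 35 of the 36 genes, and Ddx39 is the exception.

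Knockout replicate 2 held the highest value of 35 members, while 78.6% of all tested genes were highest in that library. In knockout replicate 1, 18 members lay above both control libraries, 13 between them and 5 below both. For 28 of the 36 members the knockout libraries lay further apart on the log2 scale than the group means did. The groups did not overlap for 19 members on the deposited scale, 18 higher and 1 lower in knockout, where 55.5% of all tested genes were higher without overlap and 7.38% lower. After rescaling 13 members were higher without overlap and 7 lower, beside 28.7% and 25.7% of all tested genes.

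Ddx39b and Ddx39 encode a pair of closely related helicases of mRNA export, and Ddx39b (also known as UAP56) is needed for spliceosome assembly as well. Ddx39b (chromosome 17, 35241746 to 35253707, plus strand, mm10) stood at 144 and 151 RPKM in control and at 151 and 157 RPKM in knockout. On the deposited scale the groups overlapped, with a control mean of 147 ± 5.58 RPKM and a knockout mean of 154 ± 4.20 RPKM (SD, n = 2 each). Its log2 fold change was 0.06 (SE 0.17, limma adjusted p = 0.816), and -0.29 (SE 0.21, adjusted p = 0.493) after rescaling. Both knockout libraries of Ddx39b then lay below both controls. Ddx39 (chromosome 8, 83715177 to 83726892, plus strand) stood at 94.3 and 96.0 RPKM in control and at 91.9 and 84.3 RPKM in knockout. It was the sole member with both knockout libraries below both control libraries on the deposited scale, with a log2 fold change of -0.11 (SE 0.18, limma adjusted p = 0.675). After rescaling it had the lowest value of the 36, -0.46 (SE 0.22, adjusted p = 0.354, 95% interval -0.99 to 0.07). Without knockout replicate 1 that rescaled value was -0.73 with a limma adjusted p of 0.0426, the 1 lower member given above. Of the 2799 windows of 50 bases in the longest Ddx39b transcript, 0 occur in Ddx39 transcripts. Exons of Ddx39 overlap those of Adgre5 on the opposite strand, and whether reads were counted by strand is not stated, so reads of such overlapping genes cannot be told apart.

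Because both genes are measured in the same library, the ratio of Ddx39b to Ddx39 does not depend on library scale. This ratio was 1.52 and 1.58 in control and 1.64 and 1.86 in knockout, without overlap. An exact two-sided permutation test gave p = 0.33, the smallest that 2 against 2 libraries allow. Together the pair held 42.0% and 42.9% of the summed RPKM of the 36 members in control and 41.2% and 34.0% in knockout.

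The spliceosome needs a series of helicases, and all 10 genes listed for it (Ddx23, Ddx41, Ddx42, Ddx46, Dhx8, Dhx15, Dhx16, Dhx35, Dhx38 and Ddx39b) were tested. Limma and voom with rescaled reads called 0 of them, beside 4.19% and 0.622% of all tested genes. By unadjusted p below 0.05 either had 0 of them (13.8% of all genes higher and 2.45% lower in limma, 9.49% and 7.6% in voom). The log2 fold changes of the 10 ran from 0.06 to 0.48 with a median of 0.25. After rescaling 7 of them were below and 3 above 0, with a median of -0.08. Dhx15, which takes the spent spliceosome apart and also serves in ribosome production, stood at 45.4 and 51.3 RPKM in control and at 46.6 and 59.1 RPKM in knockout. Knockout replicate 1 lay between the control libraries, and the log2 fold change was 0.12 (SE 0.20, limma adjusted p = 0.680). After rescaling both knockout libraries lay below both controls at -0.23. Ddx23, the helicase that releases U1 snRNP before splicing, had the smallest p of the group, with 1.90 and 2.07 RPKM in control and 2.67 and 3.75 RPKM in knockout. Its groups did not overlap on either scale, and its log2 fold change was 0.48 (SE 0.33, limma adjusted p = 0.407) and 0.23 after rescaling. Dhx8, which frees the spliced mRNA, stood at 5.95 RPKM in both control libraries and at 7.03 and 9.94 RPKM in knockout. The log2 fold change of Dhx8 was 0.43 (limma adjusted p = 0.426), and 0.12 after rescaling. Dhx38, which acts before the second step of splicing, lay further apart between the control libraries (4.87 and 6.64 RPKM) than between the group means (5.76 and 6.96 RPKM).

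Ddx41, a spliceosome helicase and a myeloid neoplasm gene in humans, stood at 28.2 and 29.1 RPKM in control and at 30.9 and 37.7 RPKM in knockout (log2 fold change 0.25, limma adjusted p = 0.483). After rescaling it was -0.10 with a 95% interval from -0.40 to 0.21. Ddx46, needed for early spliceosome assembly, stood at 10.8 and 11.2 RPKM in control and at 10.3 and 14.7 RPKM in knockout. Its knockout libraries thus lay on either side of the control libraries, and below both of them after rescaling.

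Among helicases of mRNA export, Ddx19a and Ddx19b encode the ATPase that removes export factors at the nuclear pore. They lie side by side on chromosome 8 (110974996 to 110997800 and 111003188 to 111031751, both on the minus strand) and were low, with Ddx19a at 2.48 and 2.16 RPKM in control and 2.36 and 3.89 RPKM in knockout. Ddx19b stood at 1.01 and 0.970 RPKM in control and at 1.17 and 1.76 RPKM in knockout, without overlap. Their log2 fold changes were 0.29 (limma adjusted p = 0.567) and 0.30 (adjusted p = 0.498), and 0.03 and 0.10 after rescaling. Of the windows of 50 bases in the longest Ddx19a transcript, 33.3% also occur in Ddx19b transcripts, so reads may have been divided between them and their separate values are uncertain. With Ddx39 and Ddx39b, 0 of the 4 measured export helicases were called. By unadjusted p below 0.05 limma and voom had 0 of the 4 (13.8% of all genes higher and 2.45% lower in limma, 9.49% and 7.6% in voom).

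Helicases of translation, mRNA storage and decay were Ddx3x, Ddx6, Dhx29, Dhx34 and Dhx36. Limma called 0 of these 5 and voom with rescaled reads called 0. By unadjusted p below 0.05 either had 0 of the 5 (13.8% of all genes higher and 2.45% lower in limma, 9.49% and 7.6% in voom). Ddx3x, an X-linked helicase that aids initiation on structured mRNAs (chromosome X, 13280970 to 13294052, plus strand), was the most abundant, with 27.4 and 26.9 RPKM in control and 25.1 and 33.2 RPKM in knockout. Its knockout libraries lay on either side of the control libraries, with a log2 fold change of 0.09 (SE 0.22, limma adjusted p = 0.792). After rescaling both knockout libraries lay below both controls and the value was -0.26 (SE 0.11, adjusted p = 0.340, 95% interval -0.54 to 0.03). Dhx34, which takes part in nonsense-mediated decay, stood at 2.24 and 2.64 RPKM in control and at 3.11 and 4.64 RPKM in knockout (log2 fold change 0.49, limma adjusted p = 0.410, and 0.22 after rescaling). Ddx6, the P body helicase that represses and helps degrade mRNAs, was low in these libraries at 3.06 and 2.46 RPKM in control and 3.01 and 3.71 RPKM in knockout. Dhx36, which unwinds G-quadruplexes, stood at 1.31 and 1.17 RPKM in control and at 1.30 and 2.56 RPKM in knockout, with knockout replicate 1 between the control libraries.

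Ddx21 acts in ribosome production, and 6 members were listed under that role (Ddx24, Ddx31, Ddx49, Ddx55, Dhx33 and Dhx37). Dhx15, which has a part in it too, was counted with the spliceosome and is not among the 6. Limma and voom called 0 of the 6. By unadjusted p below 0.05 either had 0 of them (13.8% of all genes higher and 2.45% lower in limma, 9.49% and 7.6% in voom). The median log2 fold change of the 6 was 0.33, or 0.01 after rescaling. Ddx24 stood at 19.4 and 18.5 RPKM in control and at 21.05 and 29.3 RPKM in knockout (log2 fold change 0.37, SE 0.23, limma adjusted p = 0.385). Its groups did not overlap on either scale, but the rescaled value was 0.04 with a 95% interval from -0.24 to 0.31. Ddx49, the most abundant of the 6, stood at 22.6 and 22.2 RPKM in control and at 23.1 and 28.7 RPKM in knockout. Its log2 fold change was 0.19 (limma adjusted p = 0.575), and after rescaling both knockout libraries lay below both controls at -0.14. The other 4 members stood between 3.01 and 9.71 RPKM over the libraries.

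Dhx30 and Ddx28 act in RNA granules of mitochondria, where the mitochondrial ribosome is assembled. Dhx30 stood at 9.70 and 9.42 RPKM in control and at 10.02 and 15.3 RPKM in knockout (log2 fold change 0.34, limma adjusted p = 0.461), and 0.02 after rescaling. Ddx28 stood at 10.2 and 8.93 RPKM in control and at 9.87 and 11.6 RPKM in knockout, with overlapping groups. After rescaling both knockout libraries of Ddx28 lay below both controls. Limma and voom called 0 of this pair and 0 of the 3 genes Ddx1, Ddx17 and Ddx20. By unadjusted p below 0.05 either had 0 of them (13.8% of all genes higher and 2.45% lower in limma, 9.49% and 7.6% in voom). Among the cofactors, Ddx1, a subunit of the tRNA ligase complex, stood at 35.2 and 36.8 RPKM in control and at 38.1 and 42.2 RPKM in knockout (log2 fold change 0.15, limma adjusted p = 0.620, and -0.19 after rescaling). Ddx17, a transcription and microRNA processing cofactor, stood at 8.94 and 6.83 RPKM in control and at 9.84 and 14.6 RPKM in knockout (log2 fold change 0.56, SE 0.29, limma adjusted p = 0.314). It was higher in both knockout libraries on both scales, with a rescaled value of 0.24. Exons of Ddx17 overlap those of Kdelr3 on the opposite strand.

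Dhx58, also called LGP2, is a RIG-I-like receptor that lacks signalling domains and modulates its relatives, and interferon induces its gene. Dhx58 (chromosome 11, 100694884 to 100704271, minus strand) stood at 7.80 and 7.41 RPKM in control and at 9.66 and 16.4 RPKM in knockout. Both knockout libraries lay above both controls on both scales, with means of 7.60 ± 0.275 and 13.0 ± 4.76 RPKM (SD, n = 2 each). The log2 fold change of 0.66 (SE 0.29, limma adjusted p = 0.225) was the highest of the 36, and after rescaling it was 0.34 (SE 0.14, adjusted p = 0.317, 95% interval -0.0037 to 0.69). The annotated antisense gene Dhx58os overlaps its exons, and reads of both cannot be told apart without strand. Ddx60, another interferon-induced antiviral helicase, was the lowest member at 1.04 and 0.785 RPKM in control and 0.974 and 1.73 RPKM in knockout (log2 fold change 0.28, limma adjusted p = 0.508). Of 21 tested interferon response genes limma called 0, with 9 higher and 0 lower by unadjusted p (13.8% and 2.45% of all genes). Voom with rescaled reads called 0, with 5 by unadjusted p (9.49% of all genes higher and 7.6% lower). The list's median log2 fold change was 0.57, or 0.27 after rescaling, where 19 of 21 were above 0, as were 52.5% of all tested genes. That share varied with level, and the list's mean levels ran from 1.21 to 26.6 RPKM. Of all tested genes 67.1% lay above 0 under 5 RPKM, 62.1% from 5 to 10 RPKM and 41.2% from 10 to 50 RPKM. The list's smallest p-values belonged to Usp18 (0.84, limma adjusted p = 0.103) and Oasl2 (0.64, adjusted p = 0.158). The relative Ifih1, which encodes MDA5, stood at 3.76 and 3.41 RPKM in control and 4.26 and 7.64 RPKM in knockout. The log2 fold change of Ifih1 was 0.56 (limma adjusted p = 0.372), and 0.26 after rescaling.

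Starts of 30 of the 36 genes were found in the RefSeq promoter windows (GRCm38.p6, 250 bases before to 50 after each start). The core that interferon regulatory factors bind, spelled as GAAA, any 2 bases and GAAA, was searched on both strands, overlaps allowed, and occurred in 3.44% of all 32851 windows, or in 3.99% of the 27025 genes with a window. Ddx6, Ddx11, Ddx23, Ddx39, Dhx38 and Dhx58 had no entry and were not searched. Of the 30 genes, which have 38 windows, 2 held it, Ddx60 with 2 copies and Ddx49 with 1. The 30 bases around each match are shown because Ddx60 is one of the interferon-induced members and Ddx49 the other gene that holds these letters. They are written 5′ to 3′ along the gene, with the matched letters in capitals.
Ddx60 first copy, within chr8:61927837-61928136, plus strand: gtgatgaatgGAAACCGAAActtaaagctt
Ddx60 second copy, same window: gagcagaagaGAAACCGAAActatccttca
Ddx49, within chr8:70302422-70302721, minus strand: cagaggcgatGAAAAAGAAAccttgcaaag
In Ddx60 the copies began 53 and 19 bases before the annotated start, and in Ddx49 the match began 227 bases before it. These are matches of letters and not measured binding. Neither gene was called on either scale.

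Of the 4 less studied members (Ddx59, Dhx32, Dhx40 and Dhx57) limma called 0, with 0 by unadjusted p (13.8% of all genes higher and 2.45% lower). Voom called 0, with 1 by unadjusted p (9.49% of all genes higher and 7.6% lower). The remaining members include Ddx11, an iron-sulphur DNA helicase of sister chromatid cohesion, at 6.30 and 6.01 RPKM in control and 6.25 and 10.3 RPKM in knockout (log2 fold change 0.34, limma adjusted p = 0.499). Knockout replicate 1 lay between its control libraries. Dhx32, a little studied DEAH protein, stood at 6.03 and 5.26 RPKM in control and at 7.75 and 10.6 RPKM in knockout (log2 fold change 0.60, SE 0.31, limma adjusted p = 0.315). After rescaling Dhx32 was at 0.29 (SE 0.11, adjusted p = 0.302), higher in both knockout libraries, and was the sole member whose unadjusted 95% interval, 0.01 to 0.57, left out 0. Its exons overlap those of Bccip on the opposite strand. Ddx20, the Gemin3 helicase of the SMN complex, stood at 10.3 and 9.77 RPKM in control and at 11.7 and 16.3 RPKM in knockout. The log2 fold change of Ddx20 was 0.42 (limma adjusted p = 0.398), and 0.10 after rescaling. The 18 members outside the rule for named genes had log2 fold changes between 0.15 and 0.49 with adjusted p-values from 0.398 to 0.721, and after rescaling 11 lay below 0 and 7 above, between -0.17 and 0.19. In all, exons of 10 of the 36 genes overlap an annotated gene on the other strand.

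**Figure D2:**
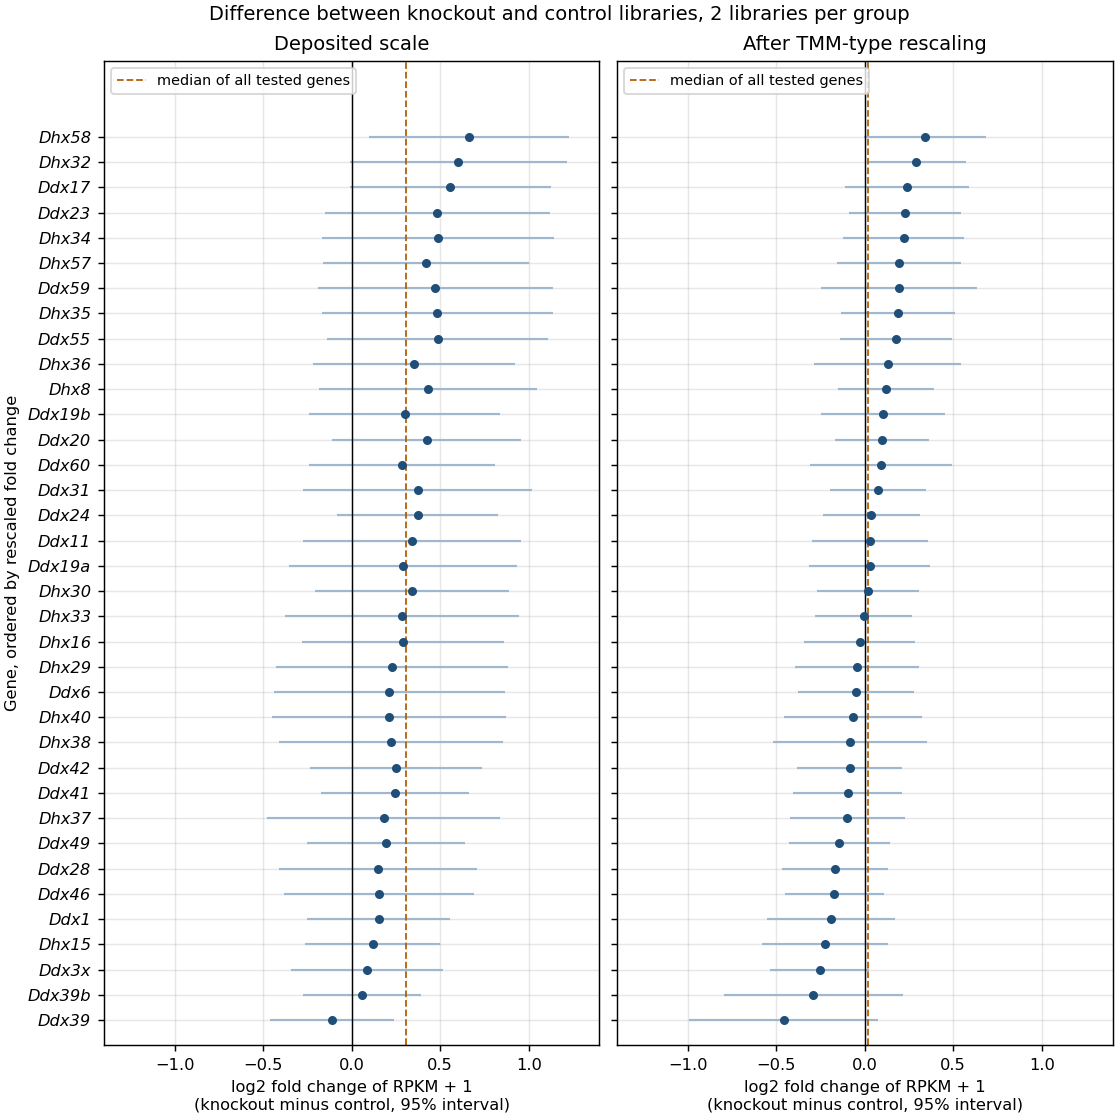
Log2 fold change of RPKM + 1 (knockout minus control) for each of the 36 genes, with bars for the 95% interval from limma, on the deposited scale (left) and after TMM-type rescaling (right); the dashed line is the median of all tested genes. Intervals of 35 genes hold 0 on each side, with Dhx58 the exception on the left and Dhx32 on the right.

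The rescaled value of a member varied with its level. After rescaling, all 3 members with a mean of at least 50 RPKM (Ddx39b, Ddx39 and Dhx15) lay below 0, with a median of -0.29, and the 1314 tested genes in that range had a median of -0.35, 9.21% of them above 0. Between 10 and 50 RPKM the 12 members had a median of -0.09, and the 3279 genes there -0.04. In the range from 5 to 10 RPKM 6 of 8 members lay above 0 with a median of 0.10, and the 2067 genes had 0.07. Under 5 RPKM 8 of 13 members lay above 0 with a median of 0.09, and the 5082 genes had 0.10. The rank correlation of mean level and rescaled log2 fold change was -0.55 over the 36 members and -0.38 over all tested genes, a description across genes that share the same 4 libraries. In knockout replicate 2 the median of all genes at 50 RPKM and above was -0.55 and in replicate 1 -0.14, so the values of Ddx39, -0.73 and -0.19, lay below both medians and those of Ddx39b, -0.47 and -0.11, above them.

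**Figure D3:**
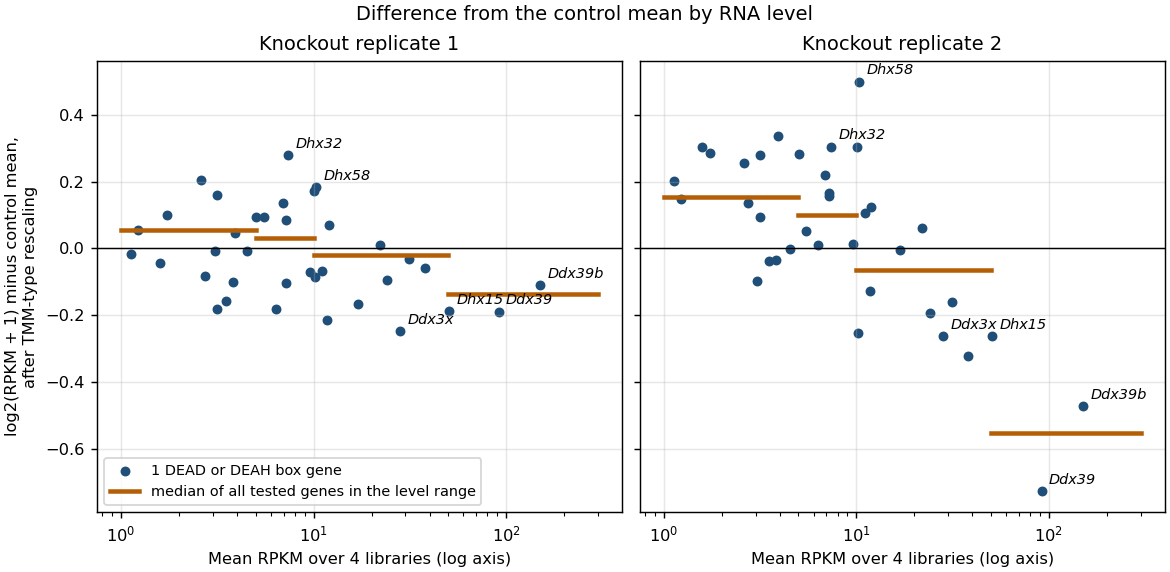
Difference of each knockout library from the control mean on log2(RPKM + 1) after rescaling, against mean RPKM on a log axis; each point is 1 of the 36 genes and each bar the median of all tested genes in that level range. In replicate 2 the bars step from 0.15 under 5 RPKM to -0.55 at 50 RPKM and above.

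Summed over the 36 genes, the level was 567 and 577 RPKM in control and 589 and 709 RPKM in knockout, higher in both knockout libraries by a mean of 77.4 RPKM (exact two-sided permutation p = 0.33, the smallest that 2 against 2 libraries allow). After rescaling the sums were 627 and 665 RPKM in control and 603 and 543 RPKM in knockout, lower in both. The direction of the sum thus depended on the scale. Leaving out Ddx39 and Ddx39b, the rescaled sums were 364 and 380 RPKM in control and 355 and 358 RPKM in knockout. Members held 0.200% and 0.203% of recovered reads in control and 0.208% and 0.253% in knockout.

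Related helicases without a Ddx or Dhx symbol gave the same count. Of 23 tested, limma called 0 and voom with rescaled reads called 0, while 2 were higher and 0 lower by unadjusted p in limma (13.8% and 2.45% of all genes), with a median log2 fold change of 0.29 (0.03 after rescaling). Those 2 were Eif4a2, an initiation factor helicase, from 46.9 ± 2.17 RPKM in control to 65.6 ± 10.2 RPKM in knockout (0.47, limma adjusted p = 0.184), and Helz2, an interferon-induced coactivator (0.57, adjusted p = 0.306). Further lists held 18 genes put down as G-patch or other possible partners of DEAH proteins, and 15 partners of Ddx6. Others held 18 genes of the THO, TREX and nuclear pore list and 12 genes of the tRNA ligase and SMN complexes. Limma and voom called 0 of these genes. By unadjusted p limma had 0, 0, 0 and 1 of them and voom 1, 0, 0 and 2, while voom had 2 of the 23 related helicases. Over all genes these shares were 13.8% higher and 2.45% lower in limma, and 9.49% and 7.6% in voom. Their medians were 0.42, 0.33, 0.26 and 0.23, and after rescaling 0.10, 0.05, -0.05 and -0.11. The smallest p-values belonged to the G-patch genes Gpatch2 (0.65, limma adjusted p = 0.309) and Gpatch4 (0.50, adjusted p = 0.322), to Lsm1 (0.50, adjusted p = 0.330) and Lsm14a (0.48, adjusted p = 0.369), to Thoc5 (0.43, adjusted p = 0.362) and the export receptor Nxf1 (0.34, adjusted p = 0.373), and to Gemin8 (0.72, adjusted p = 0.230) and Gemin6 (0.35, adjusted p = 0.400).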

How the data were processed

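The deposited table holds 12390 genes and 1 RPKM value per library, a unit the authors computed from their reads and identified here from the values: multiplied by transcript length, between 99.35% and 99.40% of a library's values came out as whole reads, within 0.1 reads. Per the submitters' processing notes the genome build was mm10. The aligner, the counter and its use of strand: not given in the sources used here. Coordinates and symbols (12384 of the IDs matched) are those of GENCODE M21. The lowest maximum over the libraries was 1.0063 RPKM, so a gene under that level throughout was not analysed here.

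The 11742 genes whose mean reached 1 RPKM were fitted on log2(RPKM + 1) by limma 3.58.1 (R 4.3.3) with its trended prior variance, genotype as the sole term and Benjamini-Hochberg adjustment at 0.05. Fold changes on this scale understate low genes. On the deposited scale the prior degrees of freedom were infinite, so each gene took the trend's spread in place of its own on 2 residual degrees of freedom. TMM-type factors were 0.904 and 0.867 for the control and 0.977 and 1.31 for the knockout libraries. The fit was also run on simulated libraries with known changes, the same relative spread for all genes and no difference in scale. That run therefore did not cover the shift of knockout replicate 2. Alternatives were 2 filters, a pseudocount of 0.1, 2 rescalings, voom on recovered reads with and without rescaling, no trend, a replicate block and leaving out each library. Members and lists were chosen with earlier results of these data known. Named were Ddx21, called members, close pairs, and the most abundant and smallest-p member of each role list. Also named were the 3 extremes of level and of rescaled change, and the 2 smallest p of each further list. Ddx6, Ddx20, Ddx28, Ddx41, Ddx46, Dhx8, Dhx38, Eif4a1 and Ifih1 were added after their values were seen.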

Additional observations from a re-analysis of the deposited data

How the results depend on the processing

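The count of 0 called members held in every alternative except 2. Without knockout replicate 1, 24 members were higher (0 in the other leave-one-out settings) where 54.3% of all tested genes were, among them 12 of the 18 named members, and the groups of all 36 members then no longer overlapped (from 23 to 36 over the libraries left out, 19 with all). Over all genes the share without overlap was 62.9% with all libraries, 93.8% without knockout replicate 1 and from 75.9% to 78.2% without one of the others. With rescaling and knockout replicate 1 left out together, an alternative chosen after seeing the data, 1 member was lower (Ddx39). Over all 11742 tested genes, 391 (3.33%) were higher and 101 (0.86%) lower. The higher and lower counts were 1 and 0 after TMM-type rescaling, 0 and 0 with quantile normalization, 51 and 22 with voom on rescaled reads, 175 and 64 with the replicate block, and from 27 to 6381 and from 5 to 526 with a library left out. At a mean of at least 5 RPKM, a filter that left 6660 genes, 235 were higher. Without a variance trend 52 of the 11742 genes were lower. The difference of summed levels was -73.1 RPKM after rescaling. The sign turned for 16 members after TMM-type rescaling, 16 with voom on rescaled reads, 18 with quantile normalization and 7 without knockout replicate 2. The named ones among them were, after TMM-type rescaling, Ddx1 -0.19, Ddx39b -0.29, Ddx3x -0.26, Ddx49 -0.14 and Dhx15 -0.23, and with voom on rescaled reads -0.18, -0.27, -0.26, -0.15 and -0.22. With quantile normalization Ddx1 stood at -0.052, Ddx11 at -0.014, Ddx19a at -0.055, Ddx19b at -0.0054, Ddx3x at -0.15, Ddx49 at -0.067, Ddx60 at -0.028 and Dhx15 at -0.050. With a library left out, the 2 named members that turned were Ddx3x and Dhx15: Ddx3x ran from -0.11 to 0.28 and Dhx15 from -0.050 to 0.29. The cause of these turns was not tested. The sample titles give replicate numbers and no pairing. Deviations of same-numbered libraries correlated at 0.067 over genes. This rests on 1 difference within each group, so it cannot decide whether same-numbered libraries were handled together. The replicate block called 0 members, as did the main fit.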
